A study of Mus musculus with 28 samples.

Results

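The extrinsic cell death pathways were followed across 28 tumors through 8 genes: the ligands Fasl and Tnfsf10 (TRAIL), the receptors Fas and Tnfrsf10b (DR5), the protease Casp8, its inhibitor Cflar (c-FLIP), and the necroptosis genes Ripk3 and Mlkl. They were taken by symbol from the 55341 genes of the count tables, and 8 of 8 passed the filter on low counts in each model. The tumors were AB1-HA, a mouse mesothelioma cell line carrying influenza hemagglutinin, grown under the skin of female BALB/c mice (strain BALB/c.AusBP), and each tumor is 1 animal. The 6 groups were PBS (n = 4), ICB (n = 5), 5-FU (n = 5), 5-FU+ICB (n = 5), Cisplatin (n = 4) and Cisplatin+ICB (n = 5). ICB, immune checkpoint blockade, combined 1 injection of anti-CTLA-4 with 3 of anti-PD-L1, at 100 µg of antibody each time. 5-FU was given into the tail vein at 75 mg/kg, and cisplatin into the peritoneum at 6 mg/kg. Whole tumors were taken 7 days after treatment began, and total estimated counts ran from 23541485 to 33950555 per tumor.

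Fasl and TRAIL are made mainly by activated lymphocytes and other leukocytes, and they bind Fas and DR5 on target cells. The bound receptor recruits caspase-8, which starts apoptosis, while c-FLIP binds beside caspase-8 and limits its activation. When caspase-8 is held in check, the kinase RIPK3 can phosphorylate MLKL, which then permeabilizes the plasma membrane in the death form called necroptosis.

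The tumors were mixtures of cells. Among the markers of the tumor itself, Msln was at 311 ± 38.7 CPM (estimated counts scaled to the size of the library; SD, n = 4) in PBS tumors and 109 ± 66.8 (n = 5) in ICB tumors, a difference of -1.51 (SE 0.76) that was not called (adjusted p = 0.117 in edgeR). Wt1, Upk3b and Lrrn4 were near 0 in PBS tumors, and Wt1 went the other way, called higher with ICB at 0.112 ± 0.078 CPM in PBS and 0.929 ± 0.595 in ICB tumors (3.03, SE 0.67, adjusted p = 0.00226 in edgeR), and also with 5-FU, 5-FU+ICB and Cisplatin+ICB. Ptprc (CD45, on all leukocytes) ran from 75 to 105 CPM in PBS tumors and from 245 to 443 in ICB tumors. In bulk RNA, fewer cells of a type and less RNA per cell cannot be told apart. Several tumors stood apart from their groups: Cisplatin+ICB 1 and 3 had summed levels of 7 T cell markers of 23.8 and 48.8 CPM, where the group reached 400.0, and 5-FU+ICB 2 had 55.6, where the group reached 1570. Tumor 5-FU+ICB 5 held 0.5 CPM of Msln and 4360 CPM summed over 5 skeletal muscle markers.

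The proximal promoters of the members were read from RefSeq (GRCm38.p6), which matched 7 of the 8; Tnfrsf10b had no entry. Each spans 250 bases before to 50 after the annotated start. A GAS motif (TTCNNNGAA, its own reverse complement) occurred in Fas alone, and an ISRE core (GAAA, any 2 bases, GAAA, or its reverse complement, bound by interferon-activated factors) in Cflar alone. The same letters occurred in 8.3% and 3.44% of 32851 promoters of this length, so 1 match of 7 for each is a description of these windows only. The pair is shown because both genes were among those higher after ICB; capitals mark the match, which begins 93 bases upstream of the start in Fas and at base 7 after it in Cflar.
Fas promoter, chr19:34290409-34290708, plus strand: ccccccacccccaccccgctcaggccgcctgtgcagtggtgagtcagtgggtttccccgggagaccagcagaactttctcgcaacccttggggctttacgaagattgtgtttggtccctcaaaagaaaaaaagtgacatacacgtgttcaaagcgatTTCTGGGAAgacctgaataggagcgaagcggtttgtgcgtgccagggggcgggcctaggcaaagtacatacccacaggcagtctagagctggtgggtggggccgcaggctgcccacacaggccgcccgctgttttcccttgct
Cflar promoter, chr1:58711241-58711540, plus strand: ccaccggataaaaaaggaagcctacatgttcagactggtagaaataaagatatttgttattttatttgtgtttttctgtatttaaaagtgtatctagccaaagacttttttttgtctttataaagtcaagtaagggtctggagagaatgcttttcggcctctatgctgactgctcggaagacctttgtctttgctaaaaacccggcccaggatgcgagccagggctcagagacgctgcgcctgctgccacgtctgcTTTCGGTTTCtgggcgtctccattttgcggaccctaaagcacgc

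Fasl, a ligand carried mainly by T and NK cells, was scarce in PBS tumors and higher in every other group except Cisplatin. Its level was 1.78, 3.19, 1.19 and 1.63 CPM in the 4 PBS tumors. The 5 ICB tumors held 10.7, 10.1, 13.1, 6.37 and 12.2 CPM, all above every PBS tumor. The 5-FU tumors held 3.51, 6.36, 7.48, 1.83 and 6.88 CPM, and 1 of them lay within the PBS range. With 5-FU+ICB the values were 19.2, 2.45, 8.84, 10.6 and 14.6 CPM, where tumor 2, the one poor in T cell markers, was again within the PBS range. Cisplatin tumors held 2.44, 1.07, 1.14 and 2.22 CPM, and Cisplatin+ICB tumors 2.54, 6.92, 1.92, 9.09 and 9.51 CPM, with the T cell-poor tumors 1 and 3 lowest. Against PBS, Fasl rose by 2.42 (SE 0.52) on the log2 scale with ICB, by 1.41 (SE 0.5) with 5-FU, by 2.52 (SE 0.52) with 5-FU+ICB and by 1.64 (SE 0.47) with Cisplatin+ICB, with adjusted p of 0.00203, 0.0475, 0.00183 and 0.0466 by the quasi-likelihood test of edgeR, adjusted by Benjamini-Hochberg across the genes tested. The difference for Cisplatin was -0.17 (SE 0.48, adjusted p = 1 in edgeR). The 5-FU call held in 2 of 9 fits that each left out 1 tumor, those without 5-FU 1 or 5-FU 4, and the Cisplatin+ICB call in 3 of 9. In edgeR the 5-FU call was also lost without the filter on low counts (adjusted p = 0.0557), with the replicate number as a block (0.108) and in the model of all 6 groups (0.0976). The Cisplatin+ICB call was lost in edgeR under the same settings (adjusted p of 0.0627, 0.154 and 0.0717) and in a model of the compared groups alone (0.155).

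Tnfsf10 encodes TRAIL, a ligand induced by interferons in many leukocytes. It was at 12.1, 15.5, 9.22 and 12.6 CPM in PBS tumors and at 48.0, 54.8, 67.9, 34.6 and 52.5 CPM in ICB tumors. The 5-FU tumors held 23.9, 26.4, 54.6, 16.6 and 30.5 CPM, all above the PBS tumors, and the 5-FU+ICB tumors 64.5, 32.6, 56.1, 55.9 and 85.8 CPM. Tnfsf10 was the one member whose 5-FU and PBS tumors did not overlap. Levels in Cisplatin tumors were 13.1, 11.9, 8.02 and 17.9 CPM, around those of PBS. Cisplatin+ICB tumors held 15.5, 32.2, 15.3, 42.6 and 37.2 CPM, with tumors 1 and 3 within the PBS range. The rise was 2.07 (SE 0.33, adjusted p = 0.000429) with ICB, 1.3 (SE 0.33, adjusted p = 0.0113) with 5-FU, 2.27 (SE 0.34, adjusted p = 0.000326) with 5-FU+ICB and 1.22 (SE 0.32, adjusted p = 0.0342) with Cisplatin+ICB in edgeR. The first 3 calls held in 9 of 9 leave-one-out fits and the last in 3 of 9; the last was also lost with the replicate block (adjusted p = 0.115 in edgeR) and in the compared groups alone (adjusted p = 0.119 in edgeR).

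Fas, the receptor of Fasl, is found on tumor cells, stroma and activated lymphocytes alike. PBS tumors held 3.85, 8.27, 3.18 and 3.46 CPM, with tumor 2 above the others, and ICB tumors 18.3, 22.2, 16.5, 11.2 and 18.1 CPM. The 5-FU tumors ranged from 6.66 to 19.9 CPM around a median of 9.15, and the 5-FU+ICB tumors held 28.6, 13.9, 19.7, 28.4 and 31.8 CPM, the highest group mean. In Cisplatin tumors Fas was at 7.0, 4.76, 5.64 and 9.65 CPM, and in Cisplatin+ICB tumors at 20.7, 21.7, 7.93, 21.5 and 18.0 CPM, where tumor 3 alone lay within the PBS range. Fas rose by 1.88 (SE 0.38, adjusted p = 0.0015) with ICB, 1.25 (SE 0.38, adjusted p = 0.0234) with 5-FU, 2.39 (SE 0.39, adjusted p = 0.000602) with 5-FU+ICB and 1.95 (SE 0.35, adjusted p = 0.0119) with Cisplatin+ICB in edgeR. Cisplatin+ICB 1, with few T cell transcripts and with Fasl and Tnfsf10 near PBS, held 20.7 CPM of Fas. The 5-FU call was lost without PBS 1, 3 or 4 or without 5-FU 3 or 5 (adjusted p up to 0.0746 in edgeR) and with the replicate block (adjusted p = 0.0518 in edgeR). The Cisplatin+ICB call was lost without PBS 1, 3 or 4 and in the compared groups alone (adjusted p = 0.0972 in edgeR).

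Tnfrsf10b, the TRAIL death receptor of the mouse, ran the other way. It was at 35.0, 30.4, 40.0 and 37.1 CPM in PBS tumors and 23.6, 15.2, 15.6, 29.4 and 22.4 CPM in ICB tumors, so that the groups did not overlap. It fell by 0.72 (SE 0.25, adjusted p = 0.0298 in edgeR) with ICB. That call was lost without PBS 1, 3 or 4 or ICB 2 or 3, with adjusted p up to 0.0899 in edgeR, without the filter on low counts (-0.64, adjusted p = 0.0967 in edgeR) and with the replicate number as a block (-0.65, adjusted p = 0.0588 in edgeR). The 5-FU tumors ranged from 23.0 to 43.4 CPM and the Cisplatin tumors from 32.0 to 44.0, both overlapping the PBS levels. The 5-FU+ICB tumors held 24.8, 38.8, 23.8, 22.9 and 11.9 CPM, a difference of -0.52 (SE 0.25, adjusted p = 0.0965 in edgeR) that was -0.73 (adjusted p = 0.017 in edgeR) without 5-FU+ICB 2. The difference for Cisplatin+ICB was -0.37 (SE 0.19, adjusted p = 0.257 in edgeR). Msln, which is not a member, also had lower means in ICB, 5-FU and 5-FU+ICB tumors (109, 108 and 64.6 CPM), called in 5-FU+ICB alone, while Wt1 was called higher in all of them; their part in the result was not tested.

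**Figure D1:**
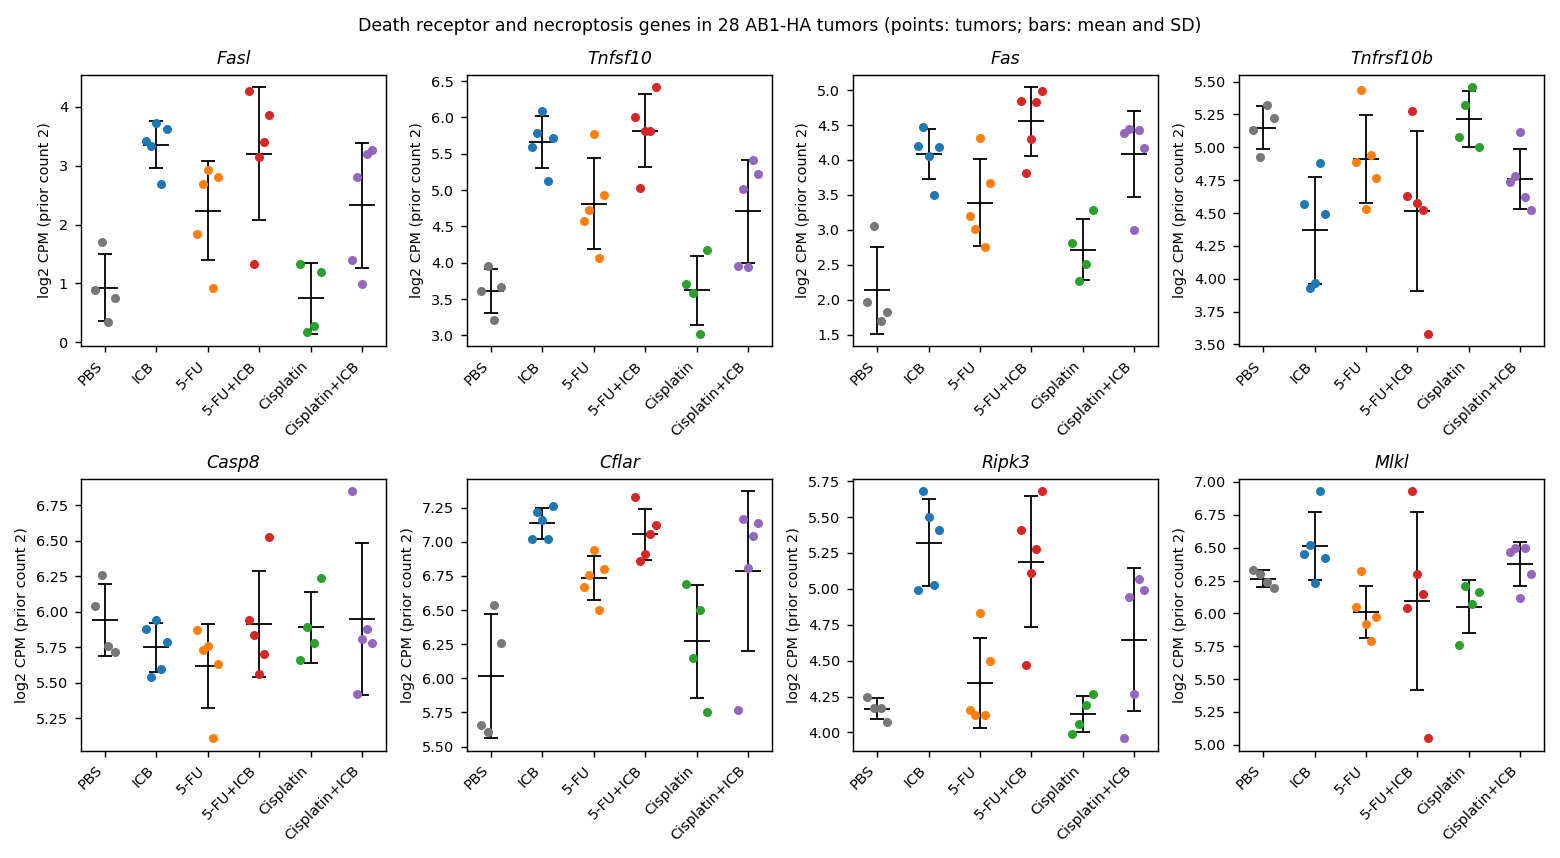
Level of each of the 8 genes on the log2 CPM scale (prior count 2) in the 6 treatment groups; each point is a tumor and the bars give the mean and SD (n = 4 or 5). Fasl, Tnfsf10, Fas, Cflar and Ripk3 sit higher in ICB tumors than in every PBS tumor, Tnfrsf10b sits lower, and Casp8 and Mlkl overlap.

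Casp8, the initiator protease, was called in none of the 13 comparisons in edgeR. PBS tumors held 65.7, 76.6, 54.0 and 52.5 CPM, and the group means lay between 49.9 ± 9.16 (SD, n = 5) in 5-FU tumors and 65.5 ± 28.5 (n = 5) in Cisplatin+ICB tumors. Cisplatin+ICB 1 at 115 CPM and 5-FU+ICB 5 at 92.5 CPM were the highest, followed by PBS 2 at 76.6 CPM. Its difference from PBS was -0.19 (SE 0.2) with ICB, -0.32 (SE 0.2) with 5-FU, 0.01 (SE 0.2) with 5-FU+ICB, -0.05 (SE 0.25) with Cisplatin and 0.09 (SE 0.24) with Cisplatin+ICB.

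Cflar encodes the caspase-8 relative c-FLIP, and its gene lies just upstream of Casp8 on the same strand of chromosome 1 (chr1:58711508-58758884 against chr1:58795374-58847503, GRCm38). It was at 50.3, 48.6, 92.9 and 76.4 CPM in PBS tumors and at 130, 149, 143, 130 and 153 CPM in ICB tumors. The PBS tumors with less Cflar, 1 and 2, were those with more Casp8. The 5-FU tumors held 102, 108, 123, 90.3 and 111 CPM, overlapping PBS only at tumor 4, and the 5-FU+ICB tumors held 160, 116, 120, 133 and 139 CPM, all above PBS. Cisplatin tumors held 103, 71.0, 90.3 and 53.8 CPM. Cisplatin+ICB tumors held 54.5, 144, 112, 131 and 141 CPM, and tumor 1 was the only one of them in the PBS range. Cflar rose by 1.11 (SE 0.16, adjusted p = 0.000221) with ICB, 0.7 (SE 0.16, adjusted p = 0.00764) with 5-FU and 1.04 (SE 0.16, adjusted p = 0.000405) with 5-FU+ICB in edgeR, each in 9 of 9 leave-one-out fits; in the model of all 6 groups the 5-FU change was 0.67 (adjusted p = 0.0811 in edgeR). With Cisplatin+ICB the difference was 0.81 (SE 0.27, adjusted p = 0.0806 in edgeR), and 1.08 (adjusted p = 0.00162 in edgeR) without tumor 1; it was also called in the model of all 6 groups (0.8, adjusted p = 0.0487 in edgeR) and by DESeq2 (0.89, adjusted p = 0.0187).

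The level of Cflar against Casp8 within a tumor does not depend on library scaling. The log2 ratio was -0.38, -0.66, 0.78 and 0.54 in PBS tumors and 1.14, 1.68, 1.22, 1.42 and 1.47 in ICB tumors. In 5-FU tumors it was 0.8, 1.03, 1.18, 1.38 and 1.17. No ICB or 5-FU tumor was as low as the highest PBS tumor. The mean differed from PBS by 1.31 (SE 0.36) with ICB and by 1.04 (SE 0.36) with 5-FU, each with the smallest p that an exact two-sided permutation test of 4 against 5 tumors can give, 0.00794. The difference was 1.07 (SE 0.38, exact permutation p = 0.0238) with 5-FU+ICB and 0.77 (SE 0.61, exact permutation p = 0.246) with Cisplatin+ICB, where tumor 1 stood at -1.08 and the others at 1.0 or above; without tumor 1 the latter difference was 1.25 (adjusted p = 0.0683 over the ratio tests, by exact permutation). Over the 55 ratio tests run, the smallest Benjamini-Hochberg adjusted p was 0.0624, so none of the ratios passed 0.05. Since no exact permutation p could fall below 0.00794, passing would have needed many ratios at or near that value together. Not passing therefore does not show that a ratio was unchanged.

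Ripk3, the kinase of necroptosis, was nearly constant in PBS tumors at 19.0, 17.9, 17.9 and 16.7 CPM. ICB tumors held 31.7, 51.1, 45.1, 32.5 and 42.5 CPM and 5-FU+ICB tumors 42.4, 22.0, 34.5, 38.8 and 51.4 CPM, all above every PBS tumor. The 5-FU tumors held 17.8, 17.3, 28.3, 17.3 and 22.6 CPM, with 3 of 5 inside the PBS range, and Cisplatin tumors ran from 15.9 to 19.2 CPM. Ripk3 rose by 1.21 (SE 0.23, adjusted p = 0.00105) with ICB and by 1.11 (SE 0.23, adjusted p = 0.00179) with 5-FU+ICB in edgeR, each in 9 of 9 leave-one-out fits. The difference was 0.22 (SE 0.23, adjusted p = 0.485) with 5-FU and 0.56 (SE 0.22, adjusted p = 0.127) with Cisplatin+ICB in edgeR, whose tumors held 15.5, 30.7, 19.2, 33.4 and 31.6 CPM; without Cisplatin+ICB 1 it was 0.76 (adjusted p = 0.00737 in edgeR).

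Mlkl, the substrate that RIPK3 phosphorylates, was likewise called in none of them. PBS tumors held 80.5, 79.0, 75.8 and 73.0 CPM, ICB tumors 87.3, 91.5, 74.8, 122 and 85.8 CPM, and 5-FU tumors 66.2, 79.6, 60.5, 55.2 and 62.6 CPM. The 5-FU+ICB group was the most scattered, at 65.5, 122, 79.0, 70.8 and 33.0 CPM, with its extremes in the T cell-poor tumor 2 and the muscle-rich tumor 5. The difference from PBS was 0.28 (SE 0.24) with ICB, -0.24 (SE 0.24) with 5-FU, -0.05 (SE 0.24) with 5-FU+ICB, -0.2 (SE 0.16) with Cisplatin and 0.13 (SE 0.15) with Cisplatin+ICB. The log2 ratio of Mlkl to Ripk3 was 2.08, 2.14, 2.08 and 2.12 in PBS tumors and 1.46, 0.84, 0.73, 1.9 and 1.01 in ICB tumors. Its mean differed by -0.92 (SE 0.22) with ICB (exact two-sided permutation p = 0.0159, adjusted p = 0.0728 over 55 tests) and by -1.2 (SE 0.5) with 5-FU+ICB (exact permutation p = 0.0794).

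Per kilobase of annotated exon (GENCODE M21), Mlkl was the most abundant member in PBS tumors at 33.5 CPM per kb, followed by Casp8 at 21.5, Ripk3 at 7.8, Tnfrsf10b at 6.54, Cflar at 5.29, Tnfsf10 at 2.34, Fas at 2.27 and Fasl at 1.01. In ICB tumors the order began with Mlkl at 40.0 and Casp8 at 18.7, and Tnfrsf10b had moved to last at 3.9 CPM per kb, below Fasl at 5.41. All exon bases of a gene were counted, which lowers genes with long alternative isoforms such as Cflar, with 12669 exon bases.

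**Figure D2:**
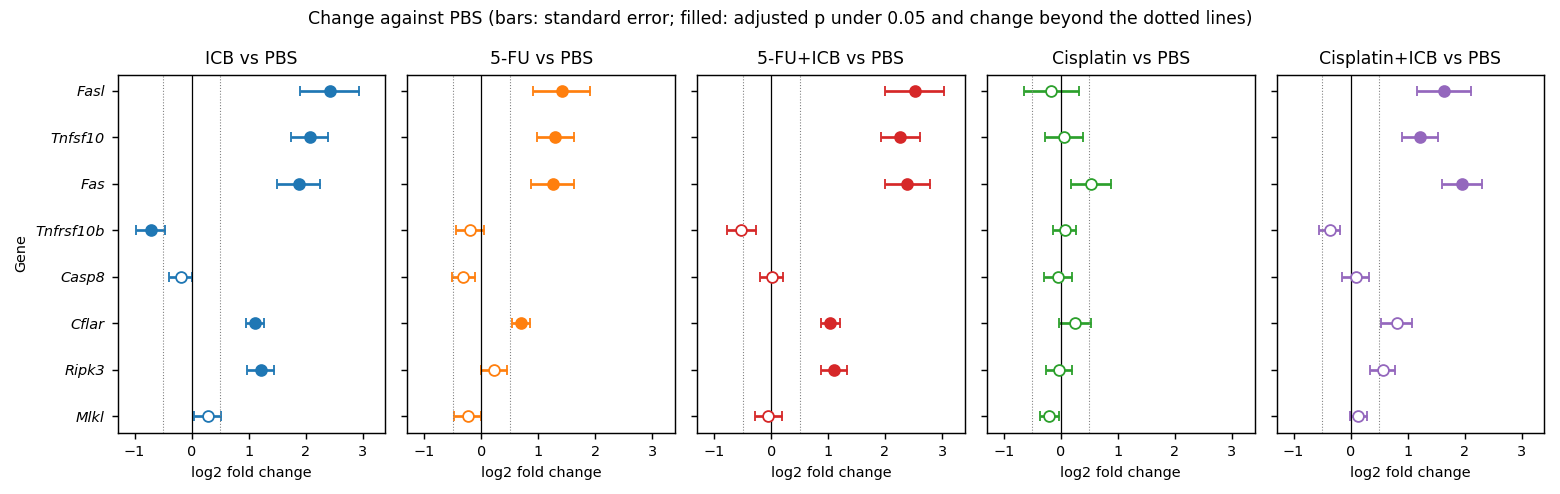
Log2 fold change of each gene against PBS in the 5 treated groups, from edgeR's quasi-likelihood fit; bars are standard errors and filled points passed the adjusted p of 0.05 and a change of 0.5. ICB and 5-FU+ICB share 5 filled points on the right (Fasl, Tnfsf10, Fas, Cflar and Ripk3), 5-FU has 4, Cisplatin+ICB has 3 and Cisplatin has none.

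Counted together, 6 of the 8 members were called in ICB against PBS (adjusted p under 0.05 and a log2 change beyond 0.5), 5 higher and 1 lower, where 37.8% of all 17916 genes tested were called, 19% higher and 18.8% lower. With 5-FU, 4 members were called, all higher, beside 23% of all genes (9.98% higher). This count was 2 without PBS 1, 3 or 4 (10.7%, 26.3% and 23.6% of all genes), without 5-FU 3 or 5 (16.5% and 14.1%), with the replicate block (18.6%) and in the model of all 6 groups (4.57%). With 5-FU+ICB, 5 were called, all higher, beside 40.7% of all genes (21.9% higher). With Cisplatin+ICB, 3 were called, all higher, beside 6.1% of 17819 genes (4.7% higher), and DESeq2 called 4, beside 11.5% of the same genes. The edgeR count was 5 without Cisplatin+ICB 1 (35.4% of all genes), 1 without Cisplatin+ICB 2, 4 or 5 (1.41%, 1.5% and 2.04%) and 0 without PBS 1, 3 or 4 (0% each). All tumors lay above PBS for 5 members in ICB (15.8% of all genes) and below it for 1 (21.6%), above it for 1 with 5-FU (9.27%), 4 with 5-FU+ICB (10.9%) and 0 with Cisplatin+ICB (3.43%). These comparisons share the 4 PBS tumors. Nothing in the labels says how litters, cages or days were shared, so the p-values measure the spread between these animals.

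With Cisplatin alone, none of the 8 genes passed the test. edgeR called 0 of 8 members against PBS, with 0 at an unadjusted p under 0.05 (1.78% of all genes), and DESeq2 called 0; of all genes tested edgeR called 0% and DESeq2 0.0224%. The largest difference was 0.53 (SE 0.35) for Fas, which ran from 0.27 to 0.95 when 1 tumor was left out and was called in 0 of 8 such fits.

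Adding ICB to 5-FU gave higher means for 7 of 8 members than 5-FU alone, but edgeR called 0, beside 0.0112% of all genes; 5 were at an unadjusted p under 0.05 (16.6% of all genes), and DESeq2 called 2, Fas and Ripk3, beside 2.92% of all genes. The difference was 1.13 (SE 0.34, adjusted p = 0.156) for Fas, 0.97 (SE 0.3, adjusted p = 0.158) for Tnfsf10 and 0.89 (SE 0.21, adjusted p = 0.113) for Ripk3 in edgeR. Without 5-FU+ICB 2 the edgeR count was 4, beside 10.9% of all genes, and without 5-FU 3 it was 3, beside 3.58%. Against ICB alone, edgeR and DESeq2 called 0 members in 5-FU+ICB tumors (0.229% and 1.7% of all genes), and 0 were at an unadjusted p under 0.05 (10.9%), and the differences lay between -0.33 (SE 0.22) for Mlkl and 0.5 (SE 0.34) for Fas.

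The test of whether the 5-FU and ICB effects added up called 0 members in edgeR, beside 0.0893% of all genes, with 2 at an unadjusted p under 0.05 (23.9%) and 1 called by DESeq2, beside 8.58% of all genes. That one was Cflar, whose combined effect was smaller than the sum by -0.78 (SE 0.22, adjusted p = 0.0668 in edgeR and 0.016 in DESeq2); in edgeR it passed without PBS 3 or PBS 4, beside 9.44% and 5.68% of all genes. The other was Tnfsf10 at -1.1 (SE 0.44, adjusted p = 0.134 in edgeR). The corresponding test for cisplatin called 0 members in edgeR and DESeq2 (0% and 0.00561% of all genes), with 0 at an unadjusted p under 0.05 (7.14%).

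Cisplatin+ICB against Cisplatin called 0 members in edgeR, beside 0% of all genes, although 6 were at an unadjusted p under 0.05 (14.2%) and DESeq2 called 3 (Fas, Fasl and Tnfsf10), beside 4.37% of all genes. Fas differed by 1.42 (SE 0.34, adjusted p = 0.0829), Fasl by 1.81 (SE 0.47, adjusted p = 0.0942) and Tnfsf10 by 1.17 (SE 0.32, adjusted p = 0.109) in edgeR. Without Cisplatin+ICB 1 edgeR called 5, beside 11.9% of all genes, and without Cisplatin+ICB 3 it called 3, beside 3.04%. Against ICB alone, edgeR and DESeq2 called 0 in Cisplatin+ICB tumors (0% and 0.275% of all genes), with 2 at an unadjusted p under 0.05 (15.9%): Tnfsf10 differed by -0.85 (SE 0.3) and Ripk3 by -0.64 (SE 0.2), both with adjusted p = 0.291 in edgeR, while Fas differed by 0.06 (SE 0.31).

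Between the chemotherapies, edgeR called 0 members in 5-FU against Cisplatin (0.362% of all genes), with 3 at an unadjusted p under 0.05 (15.5%), and DESeq2 called 2, Fasl and Tnfsf10, beside 3.57% of all genes. Tnfsf10 was higher by 1.25 (SE 0.35, adjusted p = 0.1) and Fasl by 1.59 (SE 0.53, adjusted p = 0.155) in 5-FU tumors in edgeR, without passing it. In 5-FU+ICB against Cisplatin+ICB edgeR called 0 (0.297% of all genes), with 2 at an unadjusted p under 0.05 (25.7%), and DESeq2 called 1, Tnfsf10, beside 8.5% of all genes. Tnfsf10 differed by 1.05 (SE 0.32, adjusted p = 0.0781) in edgeR; without 5-FU+ICB 2 edgeR called 2, Tnfsf10 and Ripk3, beside 11.6% of all genes, and without Cisplatin+ICB 5 it called 1, Tnfsf10, beside 6.1%.

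Ordered by mean log2 CPM, Fas ran from 5-FU+ICB through Cisplatin+ICB, ICB, 5-FU and Cisplatin to PBS, and Fasl from ICB through 5-FU+ICB, Cisplatin+ICB, 5-FU and PBS to Cisplatin. Tumors of neighboring groups overlapped at every step of the order for each of the 8 genes. The step exceeded the larger SD of the neighbors for Fas from ICB to 5-FU (0.69) and from 5-FU to Cisplatin (0.67), for Fasl from 5-FU to PBS (1.31), for Tnfsf10 from ICB to 5-FU (0.84) and from Cisplatin+ICB to Cisplatin (1.09), for Cflar from 5-FU to Cisplatin (0.46) and for Ripk3 from 5-FU+ICB to Cisplatin+ICB (0.55). For Tnfrsf10b, Casp8 and Mlkl no step did.

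The members that rose did so alongside leukocyte transcripts. In ICB against PBS, 7 of 7 T cell markers and 7 of 8 macrophage and monocyte markers were called higher, beside 19% of all genes. T cell marker sums ran from 27.7 to 35.6 CPM in PBS, 182 to 724 in ICB and 40.4 to 465 in 5-FU tumors. They ran from 55.6 to 1570 CPM in 5-FU+ICB, 15.7 to 50.1 in Cisplatin and 23.8 to 400.0 in Cisplatin+ICB tumors. Macrophage and monocyte sums ran from 1610 to 2440 CPM in PBS and from 3480 to 9420 in ICB tumors. Of the 4 NK cell markers 1 was called higher, and sums ran from 9.94 to 29.5 CPM in PBS and 20.9 to 44.7 in ICB tumors. Ly6g, a defining neutrophil marker, was at 0 in every PBS tumor and near 0 in ICB tumors too, with a mean of 0.112 CPM per kb. Called higher were also 2 of 4 neutrophil markers tested, 0 of 4 B cell, 0 of 5 skeletal muscle and 1 of 4 endothelial markers; muscle sums ran from 101 to 167 CPM in PBS and from 1.61 to 3160 in ICB tumors. With 5-FU, 5 of 7 T cell, 2 of 8 macrophage and monocyte, 1 of 4 NK cell, 1 of 4 neutrophil and 2 of 4 endothelial markers were called higher (9.98% of all genes). The 4 neutrophil markers tested were split, with 2 positive and 2 negative changes and a median log2 change of -0.13. With 5-FU+ICB, 7 of 7 T cell, 5 of 8 macrophage and monocyte, 3 of 4 NK cell, 1 of 4 neutrophil, 3 of 4 B cell and 4 of 4 endothelial markers were called higher (21.9% of all genes). With Cisplatin+ICB these were 6 of 7 T cell, 2 of 8 macrophage and monocyte and 4 of 4 neutrophil markers (4.7% of all genes). With Cisplatin there were 0 in each list (0% of all genes). Neutrophil sums ran from 9.11 to 17.9 CPM in PBS and 33.9 to 105 in Cisplatin+ICB tumors, and endothelial sums from 62.9 to 123 CPM in PBS and 150 to 616 in 5-FU+ICB tumors. Levels of the members relative to Ptprc are given after the correlations; the part of the other markers in the results was not tested.

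**Figure D3:**
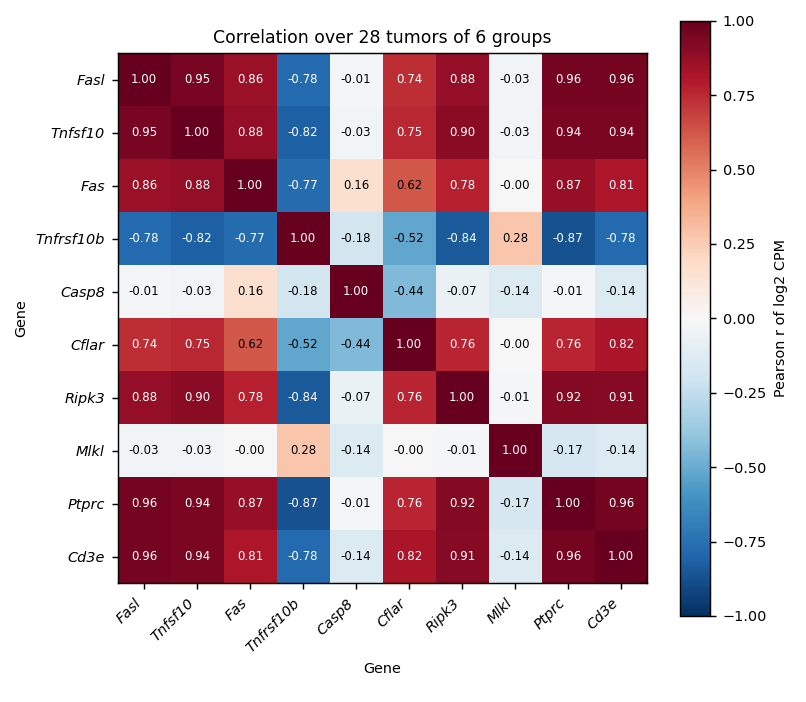
Pearson correlation of log2 CPM between the 8 genes, Ptprc and Cd3e over 28 tumors of 6 groups. Fasl, Tnfsf10, Fas and Ripk3 form a block with Ptprc and Cd3e, Tnfrsf10b is opposite to it, and Casp8 and Mlkl are near 0 to Ptprc.

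Over the 28 tumors, which share the group differences and the differences in leukocyte content, the correlation with Ptprc was 0.96 for Fasl, 0.94 for Tnfsf10, 0.92 for Ripk3, 0.87 for Fas, 0.76 for Cflar, -0.01 for Casp8, -0.17 for Mlkl and -0.87 for Tnfrsf10b. The ligands followed each other (r = 0.95 for Fasl and Tnfsf10), as did Fasl and its receptor Fas (0.86), whereas Tnfsf10 and its receptor Tnfrsf10b ran opposite (-0.82). Casp8 and Cflar were at -0.44, and Ripk3 and Mlkl at -0.01. Among all genes that passed the filter, the 3 closest in pattern were Klrc3 (0.98), Pdcd1 and Klrc1 (both 0.97) for Fasl, and Calhm6 (0.98), Ly6a and Dram1 (both 0.97) for Tnfsf10. They were Ccl6 (0.96), Serpina3i and Gm15056 (both 0.95) for Fas, and Prr13, Slc2a3 and Lcp1 (all 0.97) for Ripk3. For Tnfrsf10b they were Phf19 (0.96), Diaph3 and Hells (both 0.95), for Cflar Nbeal2, Mlxip (both 0.96) and Ccdc88b (0.95), for Casp8 Rps24, Gm13456 and Tma7 (all 0.89), and for Mlkl Apol9a (0.92), Parp12 (0.91) and Fst (0.9).

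Set against Ptprc within each tumor, the log2 ratio in ICB tumors differed from that in PBS tumors by -0.02 (SE 0.27, exact permutation p = 0.96) for Fas and 0.08 (SE 0.07, exact permutation p = 0.278) for Tnfsf10. Fasl differed by 0.47 (SE 0.22, exact permutation p = 0.0714). The values were -0.81 (SE 0.14, exact permutation p = 0.00794) for Ripk3 and -0.84 (SE 0.34, exact permutation p = 0.0238) for Cflar. The differences were -1.72 (SE 0.28) for Mlkl, -2.16 (SE 0.18) for Casp8 and -2.75 (SE 0.38) for Tnfrsf10b. In the other groups the Fas ratio to Ptprc differed from PBS by 0.31 (SE 0.26) with 5-FU, 0.34 (SE 0.28) with Cisplatin, 0.52 (SE 0.36) with 5-FU+ICB and 0.68 (SE 0.4) with Cisplatin+ICB, all overlapping PBS. The Fasl ratio was lower in Cisplatin tumors without overlap (-0.42, SE 0.2, exact permutation p = 0.0286, the smallest that 4 against 4 can give) and differed by 0.13 to 0.39 in the other 3 groups. For Tnfsf10 the differences lay between -0.24 with Cisplatin and 0.31 with 5-FU+ICB. Ripk3 was lower against Ptprc by -0.79 (SE 0.16, exact permutation p = 0.00794) with Cisplatin+ICB, without overlap, and Tnfrsf10b by -1.66 (SE 0.44, exact permutation p = 0.0238), also without overlap. Casp8 and Mlkl were lower against Ptprc without overlap with 5-FU (-1.27, SE 0.3 and -1.21, SE 0.36), as were Casp8 with 5-FU+ICB (-1.92, SE 0.42) and Mlkl with Cisplatin+ICB (-1.16, SE 0.33). Against Cd3e, a T cell receptor subunit, the Fasl ratio differed by -0.9 (SE 0.29, exact permutation p = 0.00794) with ICB and by -1.32 (SE 0.32, exact permutation p = 0.0238) with 5-FU+ICB. Tumor Cisplatin+ICB 1, with 1.8 CPM of Cd3e and 2.54 CPM of Fasl, was alone in holding more Fasl than Cd3e. None of these ratios passed 0.05 after adjustment over the 55 tests, which groups of this size could pass only with many ratios near the smallest exact p.

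**Figure D4:**
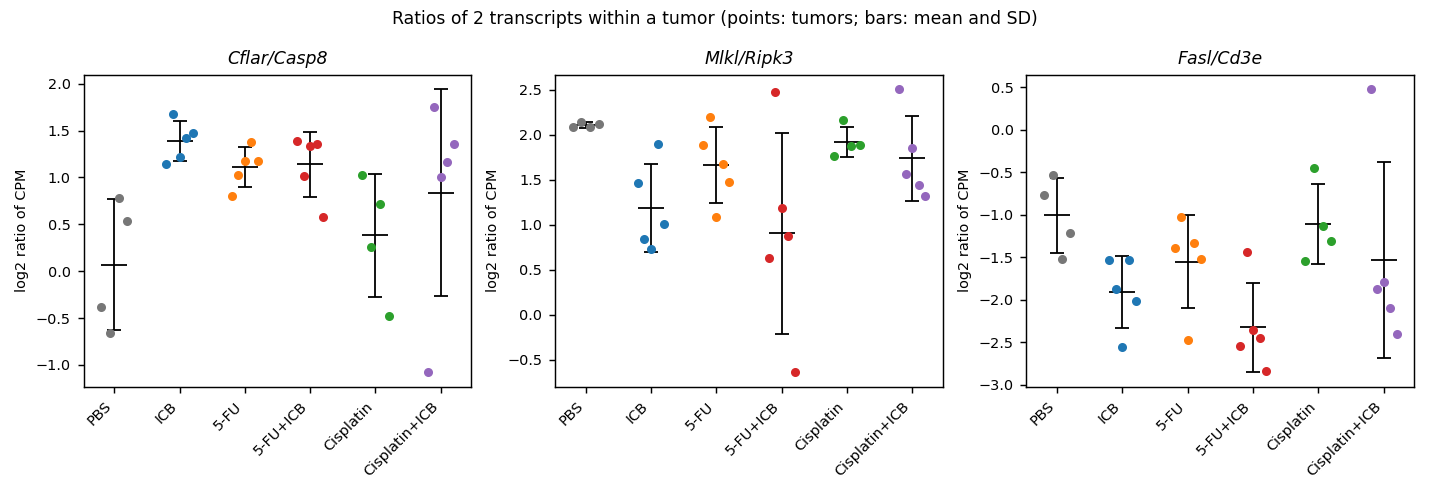
Log2 ratio of CPM of Cflar to Casp8, Mlkl to Ripk3 and Fasl to Cd3e within each tumor, by group; points are tumors and bars the mean and SD (n = 4 or 5). The ICB tumors lie above the PBS tumors in the first panel (from 1.14 to 1.68 against -0.66 to 0.78). They lie below them in the second (from 0.73 to 1.9 against 2.08 to 2.14). In the third they lie below only narrowly (from -2.56 to -1.53 against -1.52 to -0.53).

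The wider pathway was read from 37 other genes in 7 lists, of which 36 were tested. In ICB against PBS 15 were called higher and 4 lower, beside 19% and 18.8% of all genes, with a median log2 change of 0.25 (-0.03 over all genes). With 5-FU the counts were 8 higher and 6 lower (9.98% and 13% of all genes; median -0.11, all genes -0.01), with 5-FU+ICB 11 and 4 (21.9% and 18.7%; median 0.05, all genes -0.04), with Cisplatin+ICB 4 and 0 (4.7% and 1.4%; median 0.17, all genes 0.03), and with Cisplatin 0 and 0.

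Upstream, 4 of 7 receptor, adaptor and cytokine genes rose with ICB: the death ligands Tnf (3.36, SE 0.53, adjusted p = 0.000369) and Lta (2.99, SE 0.54, adjusted p = 0.000776), the TNF receptor Tnfrsf1a (0.64, SE 0.14, adjusted p = 0.00203) and the scaffold kinase Ripk1 (0.61, SE 0.12, adjusted p = 0.00121), all in edgeR. Tnf and Lta also rose with 5-FU (2.43, SE 0.51 and 1.63, SE 0.52), 5-FU+ICB (2.86, SE 0.51 and 3.38, SE 0.55) and Cisplatin+ICB (2.78, SE 0.53 and 2.32, SE 0.58). Fadd, the adaptor that joins Fas to caspase-8, was not called in any comparison. Of the 6 inhibitors, Tnfaip3 (A20) rose by 2.04 (SE 0.4) and Birc3 (cIAP2) by 1.41 (SE 0.25) with ICB, and Birc5 (survivin, a mitotic protein) fell by 1.25 (SE 0.25); the same 3 genes were called in the same directions with 5-FU and 5-FU+ICB. Birc3 has a close paralog in Birc2, and reads shared between them could be split by the estimation. Of 4 other receptors of the family, Tnfrsf11b (osteoprotegerin, a soluble decoy for TRAIL) rose by 1.63 (SE 0.43) with ICB, as did Tnfrsf26 by 1.35 (SE 0.39), a relative of the mouse TRAIL decoy receptors Tnfrsf22 and Tnfrsf23, which were not called.

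Caspases moved in both directions. With ICB, the inflammatory caspases Casp4 (0.9, SE 0.22) and Casp1 (0.58, SE 0.19) rose. With 5-FU, Casp4 rose (0.61, SE 0.22), while Casp6 fell by 0.58 (SE 0.2) and Casp2 by 0.57 (SE 0.13). With 5-FU+ICB, Casp4 rose by 1.14 (SE 0.22) and Casp6 fell by 0.5 (SE 0.2), and with Cisplatin+ICB Casp4 rose by 1.19 (SE 0.34). Casp1, Casp4 and Casp12 are neighboring paralogs. Of the 4 genes of the mitochondrial link, Cycs (cytochrome c) fell by 0.63 (SE 0.17) with ICB, and Bid, which caspase-8 cleaves, fell by 0.5 (SE 0.18) with 5-FU.

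Among 5 necroptosis partners, Zbp1, the nucleic acid sensor that engages RIPK3, rose by 1.64 (SE 0.18, adjusted p = 2.45e-05) with ICB, 0.96 (SE 0.17, adjusted p = 0.00302) with 5-FU, 1.62 (SE 0.18, adjusted p = 3e-05) with 5-FU+ICB and 1.24 (SE 0.26, adjusted p = 0.0164) with Cisplatin+ICB in edgeR. Its mean level went from 72.7 ± 7.08 CPM (SD, n = 4) in PBS tumors to 222 ± 35.0 (n = 5) in ICB tumors. Ticam1 (TRIF), the adaptor of Tlr3, rose by 1.13 (SE 0.23) and Tlr3 by 0.74 (SE 0.16) with ICB, and both rose with 5-FU and 5-FU+ICB. Pgam5, a mitochondrial phosphatase, fell by 0.78 (SE 0.16) with ICB, 0.7 (SE 0.16) with 5-FU and 0.81 (SE 0.16) with 5-FU+ICB. Of the pore formers of pyroptosis, Gsdmd rose by 0.54 (SE 0.21) with ICB, and Gsdme fell by 0.89 (SE 0.2) with ICB and 0.98 (SE 0.2) with 5-FU+ICB.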

How the data were processed

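RNA from whole tumors was sequenced as single-end reads. Per the labels and the study's methods, the authors assigned reads to GRCm38 transcripts with kallisto 0.46.0 after bcl2fastq 2.20.0.422, summarized them to genes and deposited estimated counts, not normalized, in 2 matrices, 1 per chemotherapy. The 9 PBS and ICB tumors in both matrices were identical and counted once. Of the values 23.7% were not whole, and they were rounded. Shared reads between paralogs are split by the estimation. Each 4-group matrix was fitted with edgeR 4.0.16 (R 4.3.3; filterByExpr, TMM, quasi-likelihood F test), and the joined 6 groups were used for comparisons between chemotherapies; 17916, 17819 and 18521 genes were tested. A gene was called at a Benjamini-Hochberg adjusted p under 0.05 and a log2 change beyond 0.5. CPM and log2 CPM (prior count 2) are on the TMM scale of all 28 tumors. Within-tumor ratios were compared by exact two-sided permutation. The pipeline was tested on simulated data. Named genes were the 8 members, at most 4 called genes per list and comparison, and the 3 genes closest to each member. Some genes of the lists are not reported here. The members and lists were chosen with earlier results of these data known. Alternatives were DESeq2 1.42.0, its size factors, no filter, other groupings of the model, a replicate block, a prior count of 0.5 and leaving out each tumor; shares of all genes called in these are over the genes tested in both the alternative and the first fit. Total counts of 23541485 to 33950555 put 3 counts, the floor, below every member's level in every tumor; how litters or cages were shared is not given in the sources used here.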

Additional observations from a re-analysis of the deposited data

Results flagged for a closer look

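Of 66 groups of 4 or 5 tumors examined, 4 held a tumor far from the others by Dixon's test, where chance gives 1 in 20, or 3.3. All were in Cisplatin+ICB. Tumor 3 had a log2 CPM of Fas of 3.0. Tumor 1 had a log2 CPM of Cflar of 5.77, a log2 Cflar/Casp8 ratio of -1.08 and a log2 Fasl/Cd3e ratio of 0.48. The same tumor had 655 CPM of summed mesothelioma markers, the highest of its group, and 23.8 CPM of summed T cell markers, the lowest; their part in these values was not tested.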

How the results depend on the processing

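Groups held 4 or 5 tumors, and every member was above the floor of 3 counts in every tumor. Of the counts of members called, 5-FU against PBS was 2 in the model of all 6 groups (4.57% of all genes), and Cisplatin+ICB against PBS was 0 in a model of the compared groups alone (0%). With DESeq2 the count was 2 for 5-FU+ICB against 5-FU (2.92% of all genes) and 1 for the 5-FU by ICB interaction (8.58%). It was 3 for Cisplatin+ICB against Cisplatin (4.37%), 2 for 5-FU against Cisplatin (3.57%) and 1 for 5-FU+ICB against Cisplatin+ICB (8.5%). Leaving out 1 tumor gave 2 to 4 for 5-FU against PBS (7.97% to 26.3% of all genes), 0 to 4 for 5-FU+ICB against 5-FU (0% to 10.9%), 0 to 1 for the 5-FU interaction (0% to 9.44%), 0 to 5 for Cisplatin+ICB against PBS (0% to 35.4%) and against Cisplatin (0% to 11.9%), and 0 to 2 for 5-FU+ICB against Cisplatin+ICB (0.00541% to 11.6%). The cause was not tested. Without the filter, the calls lost in edgeR were Tnfrsf10b in ICB against PBS (adjusted p = 0.0967) and Fasl in 5-FU and in Cisplatin+ICB against PBS (0.0557 and 0.0627), and the median of all genes moved by 0.102 for 5-FU against PBS and -0.119 for the 5-FU interaction. Replicate numbers did not pair the tumors: correlations of same-numbered tumors ran from -0.657 to 0.678, and 30 of 132 comparisons were best with their own number. With the replicate block, the count was 2 for 5-FU against PBS (18.6% of all genes) and 1 for Cisplatin+ICB against PBS (0.533%), and the calls lost in edgeR were Tnfrsf10b in ICB (adjusted p = 0.0588), Fas and Fasl in 5-FU (0.0518 and 0.108) and Fasl and Tnfsf10 in Cisplatin+ICB (0.154 and 0.115), each against PBS; the log2 change of Casp8 in 5-FU+ICB against PBS was -0.06 and of Mlkl in 5-FU against Cisplatin 0.03. Small changes turned sign elsewhere: Casp8 in 5-FU+ICB against PBS was -0.01 with all 6 groups; Mlkl in 5-FU+ICB against PBS was 0.00 with DESeq2 size factors, 0.04 without the filter and 0.00 in the compared groups alone; Mlkl in 5-FU against Cisplatin was 0.01 with DESeq2, 0.01 with its size factors and 0.04 without the filter; Ripk3 in Cisplatin against PBS was 0.00 in the compared groups alone; and Mlkl in the cisplatin interaction was 0.00 without the filter. Leaving out 1 tumor turned the sign of these log2 differences, none of them called, which ran from -0.19 to 0.15 for Casp8 in 5-FU+ICB against PBS, -0.24 to 0.05 for Ripk3 in 5-FU+ICB against ICB, -0.18 to 0.35 for Fasl in 5-FU+ICB against ICB, -0.31 to 0.10 for Mlkl in 5-FU by ICB interaction, -0.01 to 0.36 for Tnfrsf10b in 5-FU+ICB against ICB, -0.03 to 0.38 for Mlkl in 5-FU+ICB against 5-FU, -0.28 to 0.14 for Mlkl in 5-FU+ICB against PBS, 0.00 to 0.28 for Casp8 in 5-FU+ICB against ICB, -0.39 to 0.17 for Fasl in Cisplatin against PBS, -0.21 to 0.07 for Casp8 in Cisplatin against PBS, -0.19 to 0.21 for Tnfsf10 in Cisplatin against PBS, -0.06 to 0.25 for Fas in Cisplatin+ICB against ICB, -0.10 to 0.01 for Ripk3 in Cisplatin against PBS, -0.02 to 0.18 for Mlkl in Cisplatin by ICB interaction, -0.02 to 0.13 for Tnfrsf10b in Cisplatin against PBS, -0.17 to 0.21 for Casp8 in Cisplatin+ICB against PBS, -0.12 to 0.35 for Casp8 in Cisplatin+ICB against Cisplatin, -0.13 to 0.02 for Mlkl in 5-FU against Cisplatin, -0.27 to 0.22 for Casp8 in 5-FU+ICB against Cisplatin+ICB, -0.39 to 0.02 for Tnfrsf10b in 5-FU+ICB against Cisplatin+ICB, -0.43 to 0.01 for Mlkl in 5-FU+ICB against Cisplatin+ICB, -0.21 to 0.33 for Cflar/Ptprc in Cisplatin against PBS, -0.32 to 0.05 for Fasl/Cd3e in Cisplatin against PBS, -0.15 to 0.22 for Fas/Ptprc in ICB against PBS, -0.43 to 0.04 for Cflar/Ptprc in 5-FU against PBS and -0.41 to 0.03 for Tnfrsf10b/Ptprc in Cisplatin against PBS.
Of all results with each alternative other than leaving out a tumor, 79 counts were within 1.5 times and 9 were not, 564 member changes kept direction and side of the threshold, 11 passed it anew, 14 lost it and 11 turned sign.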
